A study of Mus musculus with 40 samples.

Results

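The genes described here encode the receptors for glutamate, GABA (γ-aminobutyric acid) and glycine. They were chosen by symbol alone: a protein-coding gene of the count table was taken when its mouse symbol was that of a Gria, Grin, Grik, Grid, Grm, Gabr, Gabbr or Glra gene or Glrb. This gave 52 of the 55487 genes in the table, namely 4 AMPA, 7 NMDA, 5 kainate and 2 delta receptor subunits, 2, 2 and 4 metabotropic glutamate receptors of groups I, II and III, 19 GABA-A and 2 GABA-B receptor subunits, and 5 glycine receptor subunits.

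Polyadenylated RNA was sequenced from 40 samples of about 200 sorted cells, 20 each of ES-astrocytes and ES-motor neurons that had been grown together. Both were derived from mouse embryonic stem cells of a non-commercial line, from a transgenic strain on the B6 background, in which eGFP is driven by the Hb9 (Mnx1) promoter, active in motor neurons, and this eGFP is the only marker of cell type that the methods name for the sort. Embryoid bodies of every group had received retinoic acid and smoothened agonist, and the ES-astrocytes were afterwards expanded with bFGF and EGF and matured with forskolin, which activates adenylyl cyclase. Each cell type has 5 treatments with 4 biological replicates each, lettered A to D. The ES-astrocytes were kept as control or were given, for 24 hours, IL-1α with TNF-α, the complement components C1Q with C5, IL-1β with IL-6, or TGF-β2. The ES-motor neurons, first purified for eGFP, were then plated on them, so that an ES-motor neuron group is named by what its ES-astrocytes received. The p-values below measure the spread between biological replicates, which for stem cells the study counts by vial.

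AMPA, NMDA and kainate receptors are cation channels opened by glutamate, and every NMDA receptor needs the subunit Grin1, while metabotropic glutamate receptors and GABA-B receptors, the latter pairs of Gabbr1 and Gabbr2, act through G proteins. GABA-A and glycine receptors are chloride channels, for which alpha, beta and most often gamma subunits are joined in the GABA-A receptor, and alpha subunits and Glrb in the glycine receptor. Spinal and brainstem motor neurons receive glutamate, GABA and glycine from the neurons that drive them, and astrocytes carry receptors for glutamate and GABA as well.

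The total on genes was 1510823 to 16054290 counts in ES-astrocyte libraries, with a median of 4670241.5, and in ES-motor neuron libraries 6557 to 19717324, with a median of 1213482. A shallow library is here one below 20% of the median of all 40 totals, which was 2459460.5 counts. These are 9 ES-motor neuron libraries: all 4 with IL-1α and TNF-α, replicate A with C1Q and C5, control replicate C, replicates B and D with IL-1β and IL-6, and replicate A with TGF-β2. Replicate A with C1Q and C5 stands apart with 6557 counts on 2697 genes and no count on any of the 52 receptor genes. The other 11 ES-motor neuron libraries held 1146186 to 19717324 counts. Values of single libraries are CPM, counts divided by the library size in units of 10⁶ counts, with TMM scaling, and RPKM is CPM per kilobase of exon. A count of 0 was read as allowing up to 3 counts, which is 0.230 to 2.04 CPM in ES-astrocyte libraries and 0.153 to 202 CPM in ES-motor neuron libraries (0.153 to 3.07 CPM in the 11 deeper ones). Reads carry no molecular identifiers, so these limits and all count intervals below cover counting error only. All genes that passed edgeR's filter on low counts entered its quasi-likelihood test, and a gene is called when its Benjamini-Hochberg adjusted p does not exceed 0.05 and its log2 fold change is above 1 or below -1, where positive means higher in ES-motor neurons.

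The cell type labels were checked against 9 marker lists, each summed per library and given as the lowest, median and highest of 20 libraries. Motor neuron markers (9 genes) summed to 73.9, 217 and 395 CPM in ES-astrocytes, most of it Lhx4 at a mean of 181 CPM, and to 943, 1328 and 4926 CPM in ES-motor neurons, led by Mnx1 at 1052 CPM. Of these 9 genes, 7 were called higher in ES-motor neurons over all treatments and 0 lower by edgeR. Pan-neuronal genes (10) summed to 1927, 2739.9 and 4090.1 CPM in ES-astrocytes against 3569.6, 8508 and 12064 CPM in ES-motor neurons, with 5 called higher in the latter, so that neuronal transcripts were present in the libraries of both cell types.

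Astrocyte markers (12 genes) summed to 628, 1846 and 3068 CPM in ES-astrocytes, led by Fabp7 at a mean of 1426 CPM, and to 0, 359.9 and 732 CPM in ES-motor neurons, led by Sox9 at 265 CPM. Gfap, Aqp4 and Aldh1l1 of this list had no count in any of the 20 ES-astrocyte libraries, and S100b had 4 counts in 1 of them. The paper reported protein of GFAP, AQP4 and GLT-1, which Slc1a2 encodes, in stained ES-astrocyte cultures. The glutamate transporters Slc1a2 and Slc1a3 were detected in 20 of 20 ES-astrocyte libraries, at median levels of 107 and 32.0 CPM. Of 7 tested genes of this list, 6 were called lower in ES-motor neurons and 1, Sox9, higher. Markers of inhibitory or other interneurons (12 genes) summed to 89.6, 250.5 and 567 CPM in ES-astrocytes, led by Gata3 at 108 CPM, and to 0, 20.4 and 64.5 CPM in ES-motor neurons, led by Lhx1 at 19.1 CPM. All 9 tested genes of the interneuron list were called lower in ES-motor neurons, where Gad1, Slc32a1, Lhx5, Evx1 and Slc17a6 had no count, while in ES-astrocytes only Evx1 of this list had none.

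Genes of neural progenitors and dividing cells (7) summed to 646, 1256 and 1696 CPM in ES-astrocytes against 67.4, 501 and 733 CPM in ES-motor neurons, with Vim the most abundant in both and 6 of 7 called lower in ES-motor neurons. Fibroblast or mesenchyme genes (7) summed to 36.8, 203 and 1119 CPM in ES-astrocytes, led by Dcn at 220.4 CPM, and to 0, 0 and 5.90 CPM in ES-motor neurons, with all 3 tested genes called lower in the latter. The oligodendrocyte lineage list (8 genes) summed to 0, 5.85 and 45.5 CPM in ES-astrocytes and 0, 10.4 and 36.6 CPM in ES-motor neurons, led by Mbp at 6.55 CPM. Microglia genes (6) summed to 0, 0.513 and 15.9 CPM and 0, 3.38 and 21.8 CPM, with Csf1r the most abundant at 2.36 and 4.19 CPM and Aif1 and P2ry12 at 0 in both cell types. Genes of pluripotent cells (5) stayed at or below 1.35 CPM per ES-astrocyte library and 4.13 CPM per ES-motor neuron library. None of the 3 and 1 tested genes of the oligodendrocyte and microglia lists was called, and no gene of the pluripotent list was tested. The libraries labelled ES-astrocyte thus carry radial glial and astrocyte genes together with interneuron, dividing-cell and mesenchymal genes, and the name is used below as the label gives it.

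**Figure D1:**
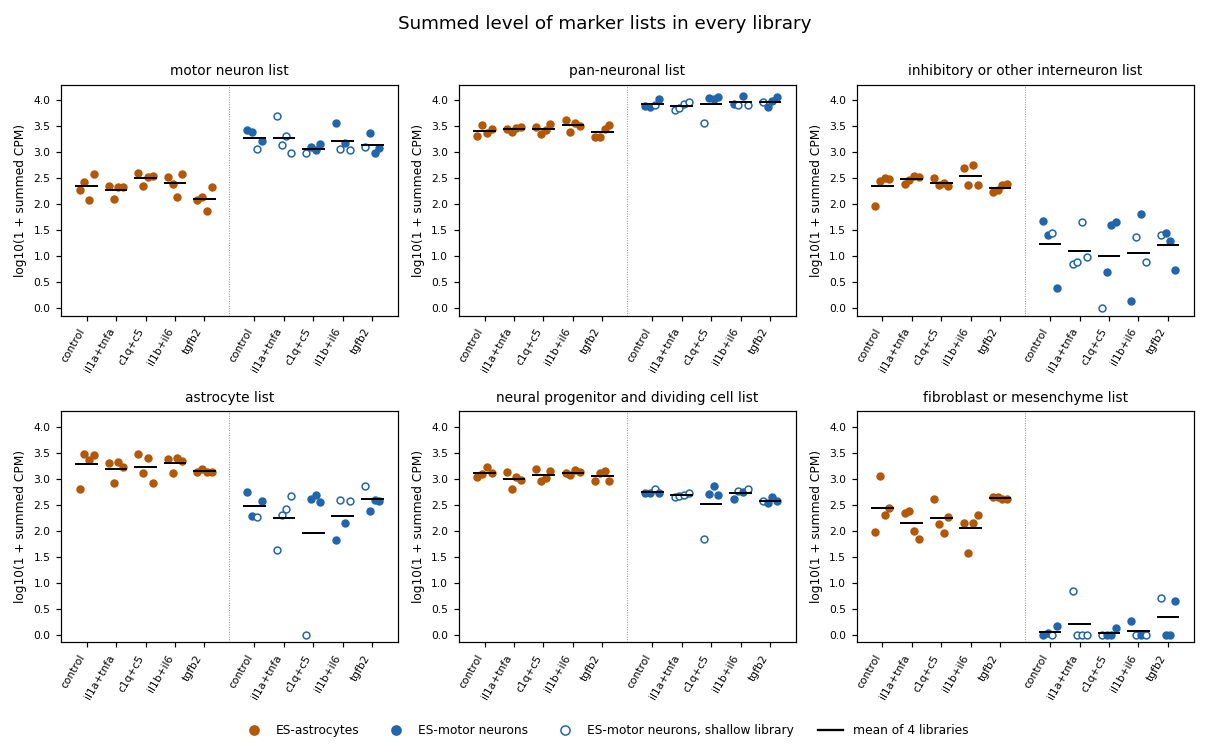
Each point is a library, placed by cell type and treatment, and the vertical axis is the log10 of 1 plus the summed CPM of a marker list, with a black line at the mean of the 4 plotted values and open points for the 9 shallow libraries. The interneuron list had a median of 250.5 CPM in ES-astrocytes against 20.4 CPM in ES-motor neurons, and the motor neuron list 217 and 1328 CPM.

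Of the 52 receptor genes, 43 had at least 1 count in some library, 41 of them in ES-astrocytes, 38 in ES-motor neurons and 36 in both. The 9 without a count in any of the 40 libraries were Grm6, Grm8, Gabra6, Gabrg3, Gabrd, Gabrp, Gabrr1, Gabrr3 and Glra4. Counts in ES-astrocytes alone were found, among others, for Grm5, Gabre and Gabrq, and in ES-motor neurons alone for Grm7 and Gabrr2, in each case in at most 4 libraries. An ES-astrocyte library held counts of 8 to 28 receptor genes (median 16), an ES-motor neuron library of 0 to 30 (median 14.5), and each of the 11 deeper ES-motor neuron libraries of 14 to 30 (median 19). In at least 10 of 20 libraries of their cell type, 14 receptor genes were detected in ES-astrocytes, 16 in ES-motor neurons and 12 in both. Summed over all members, the level was 115 to 304 CPM in ES-astrocytes (median 196) and 208 to 384 CPM in the 11 deeper ES-motor neuron libraries (median 256).

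Per length of exon, the glutamate receptor genes of highest mean level were the AMPA receptor subunits Gria2, Gria3 and Gria4 in both cell types. Among the 3 GABA and glycine receptor genes of highest mean level were Glra1 in ES-astrocytes, at 3.03 RPKM (SD 3.33, n = 20), and Gabbr1 in ES-motor neurons, at 3.94 RPKM (SD 2.59, n = 20).

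**Figure D2:**
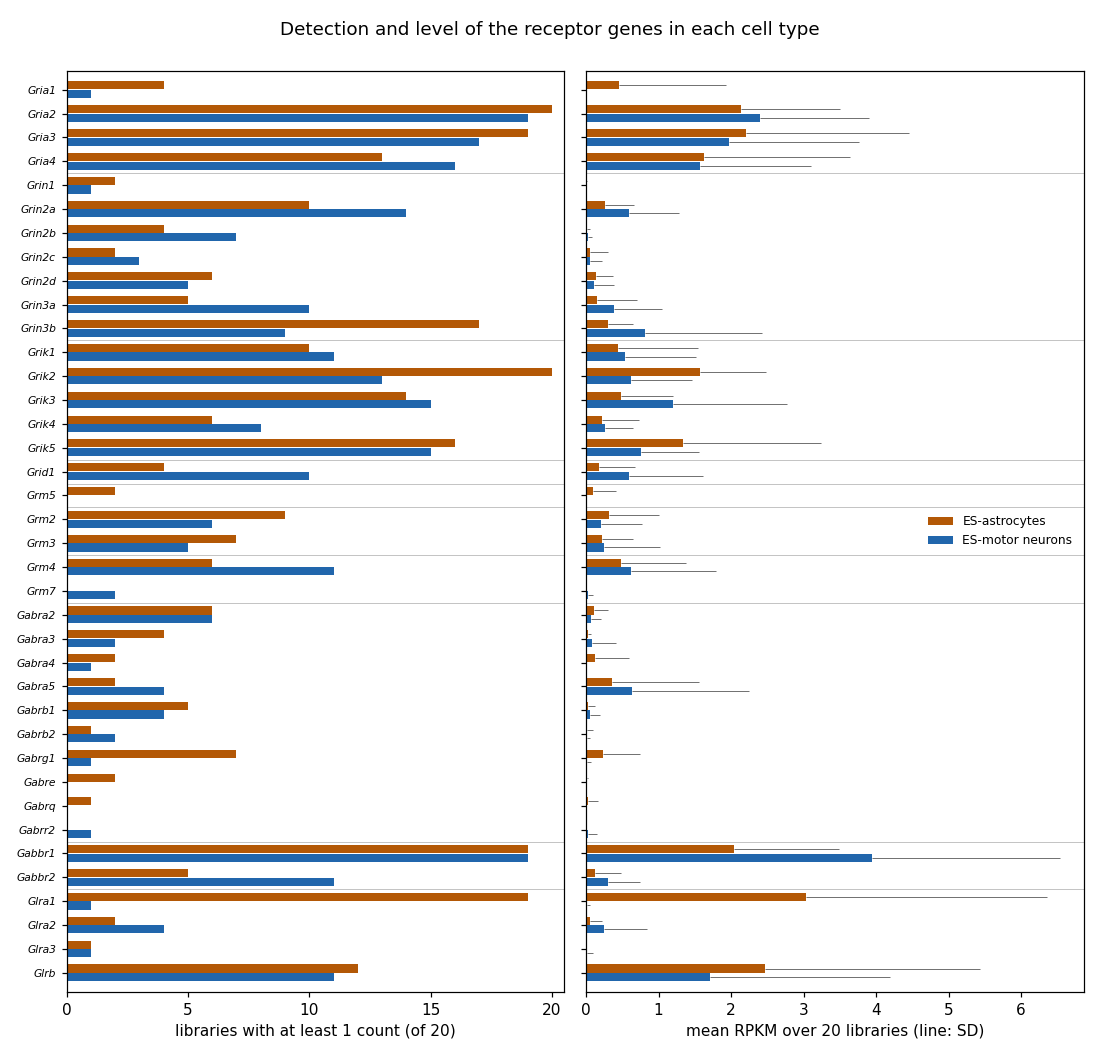
For detected receptor genes, grouped by family, the left bars give the number of libraries of 20 with at least 1 count and the right bars the mean RPKM with a line for the SD, in ES-astrocytes and ES-motor neurons. Glra1 was detected in 19 ES-astrocyte libraries and 1 ES-motor neuron library.

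Over all 40 libraries, with treatment as a term in the fit, edgeR called the glycine receptor subunit Glra1 higher in ES-astrocytes. It called the delta receptor subunit Grid1 and the GABA-B receptor subunit Gabbr2 higher in ES-motor neurons, and both of these calls ended under some alternatives given below. Glra1, Grid1 and Gabbr2 are among 4 genes that edgeR called of the 21 receptor genes that passed the filter on low counts (19.05%), beside 1972 of all 13227 genes tested (14.9%). In the direction of ES-motor neurons 3 receptor genes were called, beside 511 genes in all (3.86%), and in the direction of ES-astrocytes 1, beside 1461 genes in all (11%). The median log2 fold change was 1.07 over the 21 tested receptor genes and -0.21 over all genes tested. DESeq2 called 7 of 25 tested receptor genes, beside 1839 of 14239 genes (12.9%): the same 4 and, named here after their values were seen, Gabbr1 and Grin3a higher in ES-motor neurons and the kainate receptor subunit Grik2 lower. Of the 52 receptor genes, 31 did not pass edgeR's filter, among them 22 with some counts. Samples were sorted to about 200 cells each, and a lower level in a sample can stand for fewer cells that express the gene or for less RNA of it per cell, which cannot be told apart here. Index primers differ between the cell types as well (S337 and S339 for ES-astrocytes, S338 and S340 for ES-motor neurons), so that primer and cell type cannot be told apart either.

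Glra1 (ENSMUSG00000000263, chromosome 11, 55514238 to 55608198 on GRCm38) encodes the alpha subunit of the adult spinal glycine receptor, which binds glycine and strychnine. Its lowest, median and highest levels were 0, 4.36 and 33.3 CPM in the 20 ES-astrocyte libraries. In the 20 ES-motor neuron libraries the gene had no count in 19 and 0.408 CPM in control replicate B, the deepest of all libraries. With a count of 0 read as up to 3, 14 of 20 ES-astrocyte libraries lay above all 11 deeper ES-motor neuron libraries, while in the 9 shallow ones 3 counts amount to 6.46 to 202 CPM, and their order against ES-astrocytes is open. Among ES-astrocytes, the 4 libraries held 3.93, 4.01, 7.49 and 12.5 CPM in the control group, 0, 1.50, 2.29 and 12.5 CPM with IL-1α and TNF-α, and 3.92, 4.71, 5.07 and 33.3 CPM with C1Q and C5. They held 0.389, 1.81, 12.7 and 20.1 CPM with IL-1β and IL-6 and 0.233, 3.88, 6.13 and 9.89 CPM with TGF-β2, so that the ranges of all 5 treatments overlapped. The log2 fold change was -6.79 (SE 0.95, edgeR's quasi-likelihood test, Benjamini-Hochberg adjusted p = 2.04e-07). Summed over libraries and scaled by library size, 819 counts against 8 give a ratio of 56.6 (95% Clopper-Pearson interval 28.6 to 132). Without the 9 shallow libraries, an edgeR fit gave -6.79 (SE 1.22, Benjamini-Hochberg adjusted p = 0.000118). DESeq2 put it at -4.24 (SE 0.80, Benjamini-Hochberg adjusted p = 2.66e-06), and edgeR also called it without ES-motor neuron control replicate B, which held all 8 counts (Benjamini-Hochberg adjusted p = 1.27e-05). Without that library the ES-motor neurons are at 0, and the summed counts are at least 105-fold higher in ES-astrocytes, with 3 counts over the group as the floor. The same libraries differ in the list of interneuron markers, with a median summed level of 250.5 CPM in ES-astrocytes against 20.4 CPM in ES-motor neurons, and the part of such cells in the Glra1 difference was not tested.

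Glrb (ENSMUSG00000028020, chromosome 3, 80843599 to 80913660), the beta subunit that anchors glycine receptors to gephyrin, was detected in 12 ES-astrocyte and 11 ES-motor neuron libraries, with mean levels of 2.47 RPKM (SD 2.96, n = 20) and 1.70 RPKM (SD 2.49, n = 20). The fetal alpha subunit Glra2 was found in 2 and 4 libraries with 21 and 93 counts. For Glra3, 58 counts came from 1 ES-motor neuron library and 1 from an ES-astrocyte library, and Glra4 had none. Of the glycine receptor counts in ES-motor neurons, 383 were of Glrb and the alpha subunits had fewer, each in at most 4 libraries.

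Transcripts of several GABA-A receptor subunits were scarce: the alpha subunit Gabra2, with part of the GABA binding site, was detected in 6 ES-astrocyte and 6 ES-motor neuron libraries, Gabra5 in 2 and 4, Gabra3 in 4 and 2, Gabra4 in 2 and 1, and Gabra6 in none. Of these, Gabra5 had the highest means, 0.352 RPKM (SD 1.21, n = 20) in ES-astrocytes against 0.639 RPKM (SD 1.60, n = 20) in ES-motor neurons. Gabrb1 was detected in 5 and 4 libraries and Gabrb2 in 1 and 2. Gabrg1, a gamma subunit found in some glia and neurons, had 184 counts in 7 ES-astrocyte libraries and 5 counts in 1 ES-motor neuron library. Among further subunits, Gabre had 3 counts in 2 ES-astrocyte libraries, Gabrq 38 counts in 1, and Gabrr2 18 counts in 1 ES-motor neuron library.

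Some of these genes lie next to each other. The cluster of Gabrg1, Gabra2, Gabra4 and Gabrb1 on chromosome 5, from 70751047 to 72149037, had no member in more than 7 libraries of a cell type. Gabre, Gabra3 and Gabrq on chromosome X, from 72255999 to 72842602, were detected in at most 4. Whether neighbours share their regulation was not tested.

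Gabbr1 (ENSMUSG00000024462, chromosome 17, 37045966 to 37075067) encodes the GABA-B subunit that binds GABA, and Gabbr2 (ENSMUSG00000039809, chromosome 4, 46662305 to 46991873) its partner, which couples the receptor to G proteins and brings it to the cell surface. Gabbr1 levels were 0, 14.8 and 44.1 CPM (lowest, median, highest) in ES-astrocytes and 0, 29.2 and 56.4 CPM in ES-motor neurons. The ranges overlapped, with 14 of 20 ES-motor neuron libraries above the ES-astrocyte median and 8 above every ES-astrocyte library. DESeq2 called Gabbr1 higher in ES-motor neurons (log2 fold change 1.01, SE 0.37, Benjamini-Hochberg adjusted p = 0.0402), and edgeR did not call it. Gabbr2 had 67 counts in 5 ES-astrocyte libraries and 106 in 11 ES-motor neuron libraries, with levels of 0, 0 and 9.75 CPM and 0, 1.02 and 11.3 CPM. The cell types overlapped, and the highest ES-astrocyte library exceeded 14 of 20 ES-motor neuron libraries when a count of 0 is read as up to 3. Over all treatments the log2 fold change of Gabbr2 was 2.89 (SE 0.99, edgeR's quasi-likelihood test, Benjamini-Hochberg adjusted p = 0.0323). With shallow libraries included, its mean was higher in ES-motor neurons in 5 of 5 treatments. In such libraries 1 count amounts to 11.3 CPM (replicate B with IL-1β and IL-6) and 2 counts to 8.27 CPM (replicate A with TGF-β2). Without shallow libraries the mean was lower in ES-motor neurons for both of these stimuli. No ES-motor neuron library was then left with IL-1α and TNF-α. The edgeR call of Gabbr2 ended without the 9 shallow libraries (2.58, SE 1.47, edgeR with Benjamini-Hochberg adjusted p = 0.307). Without edgeR's filter on low counts it ended as well, at 2.86 (adjusted p = 0.0553). It also ended on leaving out any of 4 single libraries, with edgeR Benjamini-Hochberg adjusted p of 0.0533 without ES-motor neuron replicate A with TGF-β2, 0.127 without ES-motor neuron replicate C with C1Q and C5, 0.0983 without ES-astrocyte replicate C with IL-1β and IL-6 and 0.0527 without control ES-motor neuron replicate D. The log2 fold change rose to 4.03 (SE 0.96, edgeR with Benjamini-Hochberg adjusted p = 0.00152) without ES-astrocyte replicate A with IL-1β and IL-6, and to 3.63 (SE 0.98, adjusted p = 0.00547) without ES-astrocyte replicate C with TGF-β2.

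Grid1 (ENSMUSG00000041078, chromosome 14, 34820108 to 35583379) encodes the delta receptor subunit GluD1, which is bound through cerebellins rather than opened by glutamate. It had 80 counts in 4 ES-astrocyte libraries and 259 counts in 10 ES-motor neuron libraries, with levels of 0, 0 and 12.2 CPM and 0, 0.398 and 26.0 CPM. The ES-astrocyte counts came from 2 libraries with IL-1α and TNF-α and 2 with C1Q and C5, and the highest of them exceeded 15 of 20 ES-motor neuron libraries when a count of 0 is read as up to 3. The log2 fold change of Grid1 was 4.03 (SE 1.15, edgeR's quasi-likelihood test, Benjamini-Hochberg adjusted p = 0.00854). Its mean was higher in ES-motor neurons in 4 of 5 treatments, with IL-1α and TNF-α from shallow ES-motor neuron libraries alone. Without the shallow libraries, edgeR gave 5.67 (SE 1.50, Benjamini-Hochberg adjusted p = 0.00896), but without ES-motor neuron replicate A with IL-1β and IL-6 the call ended (3.15, SE 1.24, edgeR with Benjamini-Hochberg adjusted p = 0.0684). Pan-neuronal genes, too, were higher in ES-motor neurons, with medians of 2739.9 and 8508 CPM in ES-astrocytes and in them, and their part in the Grid1 and Gabbr2 differences was not tested.

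The plate index of the authors' sample sheet separates control and IL-1α with TNF-α (index 1) from the other 3 treatments (index 2), which gives a comparison of the cell types within each. Within index 2 Glra1 had 413 counts in ES-astrocytes and 0 in all 12 ES-motor neuron libraries, at least 82.6-fold higher in ES-astrocytes against 3 counts over the group (edgeR with Benjamini-Hochberg adjusted p = 0.000558), or at least 50.5-fold without ES-motor neuron replicate A with IL-1β and IL-6. Within index 1 Glra1 did not pass the filter on low counts, and its 406 counts against 8 give a ratio of 24.8 (interval 12.5 to 57.8), or at least 12.4-fold without ES-motor neuron control replicate B. Grid1 had a log2 fold change of 4.02 within index 1 (SE 1.50, edgeR with Benjamini-Hochberg adjusted p = 0.13) and was filtered out within index 2, and Gabbr2 had 1.49 within index 2 (SE 1.21, adjusted p = 0.584) and was filtered out within index 1. Summed counts of Grid1 were higher in ES-motor neurons by a ratio of 4.01 (interval 2.80 to 5.80) within index 1, and of 8.32 without ES-astrocyte replicate A with IL-1α and TNF-α. Within index 2 the ratio was 8.59 (interval 5.86 to 12.97), and 19.2 without ES-astrocyte replicate C with C1Q and C5. For Gabbr2, 29 counts against 1 within index 1 give a ratio of 59.3 (interval 9.84 to 2424), which is at least 16.0-fold without ES-astrocyte control replicate A and 98.4 without ES-motor neuron control replicate B. Within index 2 its ratio was 1.94 (interval 1.38 to 2.74), with 5.22 (interval 3.24 to 8.71) without ES-astrocyte replicate A with IL-1β and IL-6 and 1.20 (interval 0.746 to 1.88) without ES-motor neuron replicate A with the same stimulus, the last interval including 1. These intervals are 95% Clopper-Pearson intervals and cover counting error alone. These within-index comparisons were chosen after seeing the data. All directions were those of the fit over 40 libraries.

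**Figure D3:**
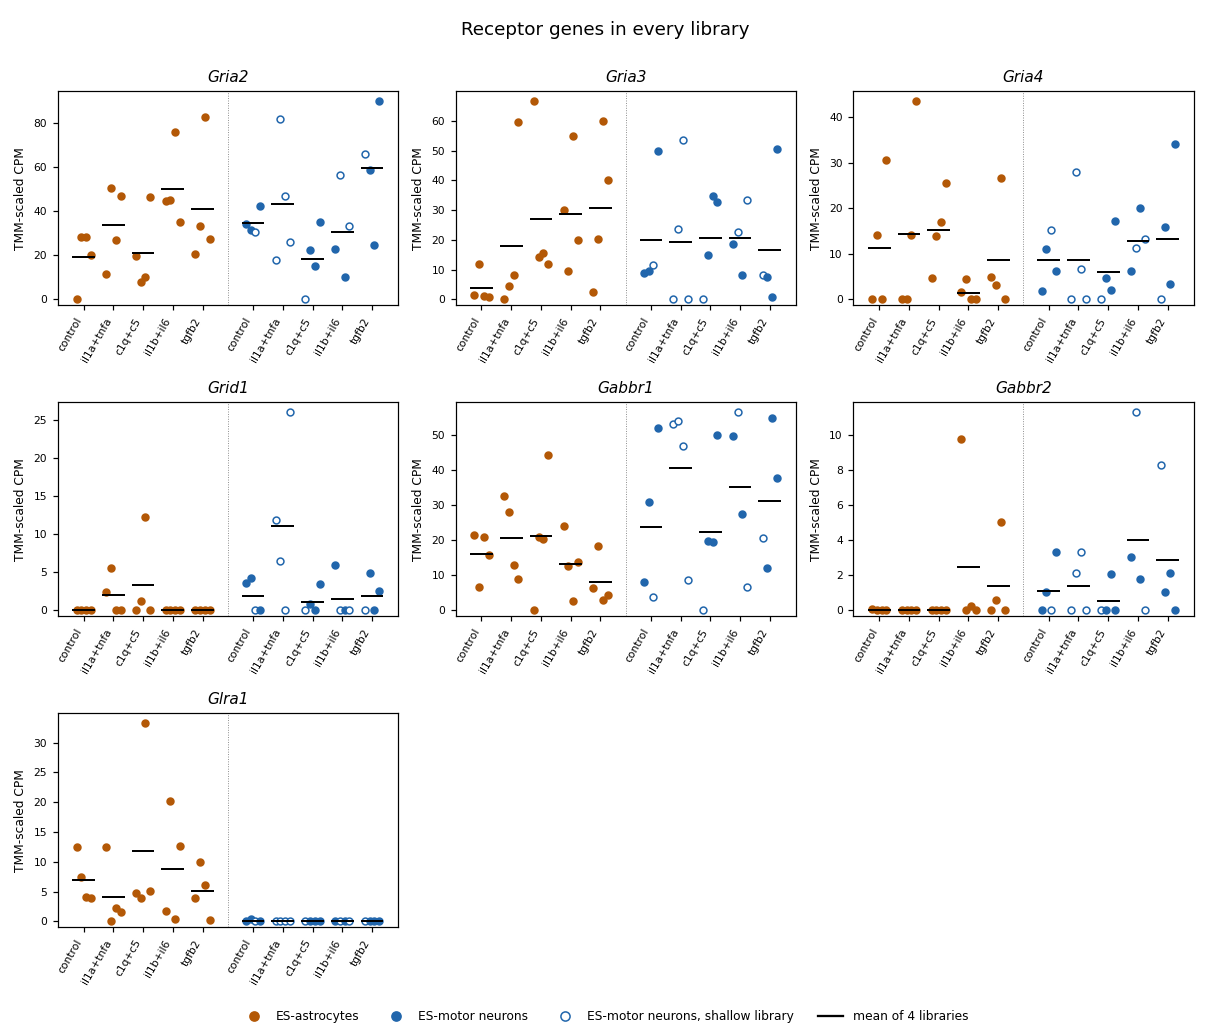
TMM-scaled CPM of 7 receptor genes in each library (points, open for shallow libraries), by cell type and treatment, with a black line at the mean of 4 libraries and a linear vertical axis of its own for each gene. Glra1 was counted in 19 of 20 libraries of ES-astrocytes but only 1 of 20 of the other cell type.

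Gria2 (ENSMUSG00000033981, chromosome 3, 80681450 to 80802835), the AMPA receptor subunit whose edited transcripts make the channel impermeable to calcium, was the most widely detected receptor gene, in 20 of 20 ES-astrocyte and 19 of 20 ES-motor neuron libraries. Its levels were 0.213, 28.4 and 82.9 CPM (lowest, median, highest) in ES-astrocytes and 0, 32.5 and 89.8 CPM in ES-motor neurons, or 10.4, 31.6 and 89.8 CPM in the 11 deeper ones. The cell types overlapped almost completely, with 12 of 20 ES-motor neuron libraries above the ES-astrocyte median. Gria3 (ENSMUSG00000001986, chromosome X, 41400854 to 41678601) was at 0, 13.2 and 66.6 CPM in ES-astrocytes against 0, 13.3 and 53.6 CPM in ES-motor neurons, again overlapping, with 10 of 20 ES-motor neuron libraries above the ES-astrocyte median. Gria4 (ENSMUSG00000025892, chromosome 9, 4417896 to 4796234) was at 0, 4.57 and 43.5 CPM and 0, 6.48 and 34.2 CPM, detected in 13 and 16 libraries. Mean levels per length were 2.13 RPKM (SD 1.37, n = 20) for Gria2, 2.20 RPKM (SD 2.26, n = 20) for Gria3 and 1.62 RPKM (SD 2.02, n = 20) for Gria4 in ES-astrocytes. In ES-motor neurons the means were 2.40 RPKM (SD 1.50, n = 20), 1.98 RPKM (SD 1.78, n = 20) and 1.57 RPKM (SD 1.54, n = 20) in the same order. None of these 3 genes was called by edgeR or DESeq2 between the cell types. Gria1 differed from the other AMPA receptor subunits in detection, with 182 counts in 4 ES-astrocyte libraries (100 of them in a single library) and 1 count in ES-motor neurons, a ratio of 101 with a 95% Clopper-Pearson interval of 17.8 to 3998. Without that library, ES-astrocyte replicate B with TGF-β2, the ratio is 49.7 (interval 8.68 to 1988). Exons of Gria2, Gria3, Gria4 and Grid1 each overlap a noncoding RNA gene on the same strand, which held 131, 4, 1 and 7 counts over the 40 libraries, and those of Glra1 overlap an antisense gene with 5 counts, and whether reads were counted by strand is not stated.

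Grin1, the obligatory NMDA receptor subunit, had 3 counts in 2 ES-astrocyte libraries and 1 count in an ES-motor neuron library, although 3 counts amount to 0.153 to 3.07 CPM in the 11 deeper ES-motor neuron libraries. The regulatory subunit Grin2a was found in 10 ES-astrocyte and 14 ES-motor neuron libraries, at 0.258 RPKM (SD 0.409, n = 20) and 0.587 RPKM (SD 0.691, n = 20). Grin2b, prevalent in immature neurons, was detected in 4 and 7 libraries with 31 and 91 counts. Grin2c had 9 and 66 counts, and Grin2d 134 and 152. Grin3a and Grin3b, subunits of glycine-gated or less calcium-permeable receptors, were detected in 5 and 17 ES-astrocyte libraries and in 10 and 9 ES-motor neuron libraries. Grin3a was called higher in ES-motor neurons by DESeq2 (log2 fold change 3.29, SE 1.23, Benjamini-Hochberg adjusted p = 0.044) and not by edgeR. A transcript of Grin1 was thus at the limit of detection in libraries in which other NMDA receptor subunits were counted.

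Kainate receptor subunits were found in both cell types, all 5 passing edgeR's filter and none called by it. Grik2 was detected in 20 ES-astrocyte libraries at 1.57 RPKM (SD 0.915, n = 20) and in 13 ES-motor neuron libraries at 0.618 RPKM (SD 0.842, n = 20), and DESeq2 called it lower in ES-motor neurons (log2 fold change -1.48, SE 0.51, Benjamini-Hochberg adjusted p = 0.0253). Grik3 was at 0.485 RPKM (SD 0.715, n = 20) in ES-astrocytes against 1.20 RPKM (SD 1.56, n = 20) in ES-motor neurons, the highest mean of a kainate receptor gene in the latter. The subunit Grik5, which joins others to form high-affinity receptors, was at 1.33 RPKM (SD 1.91, n = 20) and 0.756 RPKM (SD 0.797, n = 20). Grik1 was detected in 10 and 11 libraries and Grik4 in 6 and 8.

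Metabotropic glutamate receptors were sparse in both cell types. Grm5, the group I receptor known from developing astrocytes, had 62 counts in 2 ES-astrocyte libraries (48 in a single library) but no ES-motor neuron library held any, at least 11.4-fold higher in ES-astrocytes when counts are summed and scaled by library size, with 3 counts over the group as the floor. Without that library, ES-astrocyte replicate D with TGF-β2, it is at least 2.68-fold higher. Grm2 and Grm3, which lower cyclic AMP, were detected in 9 and 7 ES-astrocyte libraries and in 6 and 5 ES-motor neuron libraries. Grm4, a presynaptic receptor of group III, was detected in 6 ES-astrocyte and 11 ES-motor neuron libraries, at 0.480 RPKM (SD 0.899, n = 20) and 0.615 RPKM (SD 1.17, n = 20), and Grm7 had 2 counts in 2 ES-motor neuron libraries. Low counts also set the bounds for Gabra4, with 30 counts in ES-astrocytes against 1 in ES-motor neurons (ratio 16.6, 95% Clopper-Pearson interval 2.76 to 677). Of these, 19 came from ES-astrocyte replicate A with C1Q and C5, and without it the ratio is 6.16, with an interval of 0.896 to 265 that includes 1. Glra3 had 58 counts in ES-motor neurons against 1 in ES-astrocytes (ratio 105, interval 18.1 to 4212), all of the former from control replicate B. Without that library, 1 count in ES-astrocytes against 0 in ES-motor neurons remains, and no ratio can be given. Over summed counts, Gabrq was at least 7.01-fold higher in ES-astrocytes, from ES-astrocyte replicate B with C1Q and C5 alone. Gabrr2 was at least 10.8-fold higher in ES-motor neurons, from ES-motor neuron replicate A with IL-1β and IL-6 alone. Without its library each gene is at 0 in both cell types, so neither bound holds for a cell type beyond that library.

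In control cultures alone, with 4 libraries of each cell type, Glra1 did not pass edgeR's test. Glra1 was at 3.93, 4.01, 7.49 and 12.5 CPM in ES-astrocytes and at 0, 0, 0 and 0.408 CPM in ES-motor neurons. All 4 ES-astrocyte libraries, if a count of 0 is read as up to 3, lay above the 3 deeper ES-motor neuron libraries, while the shallow replicate C, where 3 counts amount to 11.5 CPM, could lie above 3 of them. Of 13 receptor genes tested, edgeR called 0 and placed 2, Glra1 among them, at an unadjusted p under 0.05, beside 228 calls among 10199 genes (2.24%). The log2 fold change of Glra1 was -5.00 (SE 1.51, edgeR with Benjamini-Hochberg adjusted p = 0.152). DESeq2 called 3 of 15 receptor genes in these libraries, beside 763 of 12230 genes (6.24%), among them Grin3a higher and Glra1 lower in ES-motor neurons (log2 fold change -4.60, SE 1.53, Benjamini-Hochberg adjusted p = 0.0445). Control Grin3a had no count in ES-astrocytes and 116 counts in 3 ES-motor neuron libraries.

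Other genes of these receptor systems were taken from 11 lists and compared over all 40 libraries, where edgeR tested 84 genes. It called 9 of them higher in ES-motor neurons (10.7%, beside 3.86% of all genes) and 14 lower (16.7%, beside 11%), each by Benjamini-Hochberg adjusted p. Of 15 auxiliary proteins of AMPA receptors, 9 were tested, 1 was called higher and 2 lower (median log2 fold change -0.56, against -0.21 over all genes). Cacng4, a TARP that carries AMPA receptors to the membrane, had a log2 fold change of 1.26 (SE 0.41, adjusted p = 0.0226), while Cacng8, another TARP, had -3.88 (SE 1.12, adjusted p = 0.00906) and Shisa9, which slows recovery from desensitization, -5.58 (SE 1.23, adjusted p = 0.000542) by edgeR. Of Neto1 and Neto2, which modulate kainate receptors, only Neto2 passed the filter, and it was not called. Cerebellins, the secreted ligands of delta receptors, gave 2 called higher of 3 tested (median 2.64): Cbln1 with 2.78 (SE 0.85, adjusted p = 0.0149) and Cbln4 with 2.64 (SE 0.97, adjusted p = 0.0475) by edgeR. Cbln1 was detected in 7 ES-astrocyte and 18 ES-motor neuron libraries, with medians of 0 and 15.1 CPM. Grid1, the receptor subunit that cerebellins bind, was called higher in the same cell type. Without the 9 shallow libraries the calls of Cacng4, Cacng8, Cbln1 and Cbln4 ended, and DESeq2 did not call Cacng8 or Shisa9. The call of Cbln4 also ended without the filter, with the replicate letter as a term, and on leaving out any of 20 of the 40 libraries (at most edgeR's Benjamini-Hochberg adjusted p = 0.0743, at 2.49, without ES-motor neuron control replicate C).

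Of the GABA-A receptor assembly and auxiliary genes, 12 were tested and 1 was called, Lhfpl3 with a log2 fold change of 3.49 (SE 1.03, adjusted p = 0.0124) by edgeR (median of the list 0.05). GABA-B auxiliary genes gave 2 called higher of 4 tested (median 1.68), the KCTD proteins Kctd8 with 4.00 (SE 1.00, adjusted p = 0.00243) and Kctd16 with 4.98 (SE 1.34, adjusted p = 0.005) by edgeR, which bind Gabbr2 and shape its signalling. Kctd8 was detected in 18 ES-motor neuron and 4 ES-astrocyte libraries, and Kctd16 in 5 and 2. Among 19 tested scaffolds of excitatory synapses (median -0.09), Grip1, which binds AMPA receptor subunits, had a log2 fold change of 2.87 (SE 0.43, adjusted p = 1.02e-06) and Homer2, a partner of group I metabotropic receptors, of 1.32 (SE 0.35, adjusted p = 0.00392), and Camk2a had -3.64 (SE 1.31, adjusted p = 0.0484) by edgeR. Grip1 had median levels of 7.10 CPM in ES-astrocytes against 63.9 CPM in ES-motor neurons. None of 4 tested scaffolds of inhibitory synapses was called by edgeR (median 0.34). The call of Lhfpl3 ended without ES-motor neuron control replicate B (2.58, edgeR with Benjamini-Hochberg adjusted p = 0.110) and without ES-motor neuron replicate C with IL-1β and IL-6 (2.78, adjusted p = 0.0919). The call of Camk2a ended without the filter and on leaving out any of 31 of the 40 libraries (at most edgeR's Benjamini-Hochberg adjusted p = 0.191, at -2.36, without ES-astrocyte control replicate A). Without the shallow libraries the calls of Kctd8, Kctd16 and Camk2a ended, and DESeq2 did not call Lhfpl3, Kctd16 or Camk2a.

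Of 12 tested enzymes of transmitter synthesis and breakdown (median -0.27), 5 were called by edgeR, among them Gad1, Gad2, Gldc and Shmt1 as lower in ES-motor neurons. Gad2, which makes GABA, had a log2 fold change of -5.76 (SE 0.82, adjusted p = 2.89e-07), and Gldc and Shmt1, enzymes of glycine metabolism, had -4.26 (SE 0.85, adjusted p = 0.000141) and -3.67 (SE 0.92, adjusted p = 0.00233) by edgeR. Of 10 tested transporters, 5 were called lower in ES-motor neurons and 0 higher by edgeR (median -2.23, the same with genes without counts set at their bound). The glial glutamate transporters Slc1a3 and Slc1a2 had log2 fold changes of -6.80 (SE 0.87, adjusted p = 2.57e-08) and -2.90 (SE 0.42, adjusted p = 4.47e-07) by edgeR. Slc17a6, which loads glutamate into vesicles, had 1469 counts in 20 of 20 ES-astrocyte libraries but no ES-motor neuron library held any, at least 271-fold higher in ES-astrocytes over summed counts (edgeR's Benjamini-Hochberg adjusted p = 1.01e-06). Slc17a8 was likewise at 0 in ES-motor neurons and at least 249-fold higher in ES-astrocytes, and the last of the 5 was the glycine transporter Slc6a5. Gad1, Gad2, Slc17a6 and Slc6a5 are also interneuron markers of the list above, and Slc1a2 and Slc1a3 astrocyte markers. None of the 4 chloride cotransporters was called by edgeR (median -0.67), while 2 of 7 editing and splicing factors were lower in ES-motor neurons (median -1.39): Nova1, which regulates splicing of Glra2 transcripts, with -1.60 (SE 0.29, adjusted p = 2.57e-05) and Ptbp1 with -2.34 (SE 0.76, adjusted p = 0.022) by edgeR. Of the genes named in this paragraph, Gad1, Slc6a5 and Ptbp1 were no longer called without the shallow libraries, and Gad1 and Slc6a5 were not called by DESeq2.

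Stimulation of ES-astrocytes gave no called change of a receptor gene in the ES-astrocytes themselves. The 4 comparisons share their control libraries, and each was made with 4 libraries against 4. With IL-1α and TNF-α, edgeR called 0 of 10 tested receptor genes, 0 of them at an unadjusted p under 0.05, and 0 of 10444 genes (0%, with 93 at an unadjusted p under 0.05), and DESeq2 called 0 receptor genes and 21 genes (0.164%). With C1Q and C5, edgeR called 0 of 11 receptor genes, 0 of them at an unadjusted p under 0.05, and 0 of 10865 genes (0%, with 106 at an unadjusted p under 0.05), and DESeq2 0 receptor genes and 37 genes (0.284%). With IL-1β and IL-6, the counts by edgeR were 0 of 11 receptor genes, 1 at an unadjusted p under 0.05, and 0 of 10240 genes (0%, with 119 at an unadjusted p under 0.05), and by DESeq2 0 receptor genes and 56 genes (0.44%). With TGF-β2, they were 0 of 11 receptor genes, 1 at an unadjusted p under 0.05, and 0 of 10794 genes (0%, with 136 at an unadjusted p under 0.05), and by DESeq2 0 receptor genes and 58 genes (0.462%). The receptor gene at an unadjusted p under 0.05 in the last 2 comparisons was Gria3 in both.

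Gria3 levels were 0.855, 1.09, 1.60 and 11.8 CPM in control ES-astrocytes, where replicate B stands above the other 3. They were 0, 4.61, 8.26 and 59.6 CPM with IL-1α and TNF-α, 11.99, 14.4, 15.6 and 66.6 CPM with C1Q and C5, 9.46, 20.1, 30.1 and 55.1 CPM with IL-1β and IL-6 and 2.45, 20.3, 40.1 and 59.8 CPM with TGF-β2. All 4 libraries with C1Q and C5 lay above all 4 controls, by no more than 11.99 against 11.8 CPM at the nearest. The other 3 stimuli overlapped with the control. A difference of Gria3 between stimuli and control did not pass the adjusted test of either tool in any of these comparisons. Group means of Gria2 ran from 19.2 ± 13.3 CPM (SD, n = 4) in control ES-astrocytes to 50.3 ± 17.8 CPM with IL-1β and IL-6. Gabbr1 ran from 7.97 ± 6.98 CPM with TGF-β2 to 21.3 ± 18.0 CPM with C1Q and C5, and Gria4 from 1.50 ± 2.09 CPM with IL-1β and IL-6 to 15.3 ± 8.58 CPM with C1Q and C5. Glra1 ran from 4.09 ± 5.72 CPM with IL-1α and TNF-α to 11.7 ± 14.4 CPM with C1Q and C5. Gria2 with IL-1β and IL-6, at 35.3, 44.6, 45.3 and 76.1 CPM, had all 4 libraries above all 4 controls, at 0.213, 20.0, 28.3 and 28.4 CPM, and was not called by either tool. For Gabbr1 and Glra1, the groups of lowest and highest mean overlapped with each other and with the control, and for Gria4 they overlapped with the control but not with each other. For Gria2, Gria3 and Gria4, the share of all genes whose groups lie apart in this way was not determined. These separations are therefore not read as effects of a stimulus. C1Q with C5, IL-1β with IL-6 and TGF-β2 carry plate index 2 and the control plate index 1, so that these stimuli and the plate index cannot be told apart, whereas IL-1α with TNF-α shares the index of the control.

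In ES-motor neurons plated on stimulated ES-astrocytes, no receptor gene was called either, and edgeR tested fewer of them than in ES-astrocytes. DESeq2 tested 27, 29, 29 and 14 receptor genes, in the order of stimuli below, against 19, 20, 19 and 17 in ES-astrocytes. For IL-1α and TNF-α, where all 4 stimulated libraries are shallow, edgeR tested 4 receptor genes and called 0, with 0 at an unadjusted p under 0.05, beside 0 of 4479 genes (0%, with 143 at an unadjusted p under 0.05). DESeq2 called 0 receptor genes and 1 gene there (0.0062%), Pdxk. For C1Q and C5, edgeR called 0 of 6 receptor genes, 0 at an unadjusted p under 0.05, and 0 of 7348 genes (0%, with 322 at an unadjusted p under 0.05), and DESeq2 called 0 of either (0%). For IL-1β and IL-6, edgeR called 0 of 8, 0 at an unadjusted p under 0.05, and 0 of 8327 genes (0%, with 98 at an unadjusted p under 0.05), and DESeq2 0 receptor genes and 1 gene (0.00539%), A530041M06Rik. For TGF-β2, edgeR called 0 of 9 receptor genes, 0 at an unadjusted p under 0.05, and 1 of 7947 genes (0.0126%), Hoxa5, and DESeq2 0 receptor genes and 19 genes (0.176%). The names Pdxk, A530041M06Rik and Hoxa5 were taken after their values were seen, and none is a receptor gene.

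In ES-motor neurons, Gria2 means ran from 18.2 ± 14.7 CPM (SD, n = 4) with C1Q and C5 to 59.8 ± 27.0 CPM with TGF-β2. Gabbr1 had its lowest mean with C1Q and C5, 22.3 ± 20.6 CPM, and its highest with IL-1α and TNF-α, 40.6 ± 21.5 CPM, from shallow libraries alone. Gria3 stayed between 16.7 ± 22.8 CPM and 20.7 ± 16.4 CPM, and Gria4 between 6.02 ± 7.74 CPM and 13.4 ± 15.5 CPM. Gabbr2 and Grid1 reached means of at most 4.03 ± 4.99 CPM and 11.1 ± 11.04 CPM, the latter from shallow libraries with 8 counts in all. The Gabbr2 mean, with IL-1β and IL-6, is led by shallow replicate B, where 1 count amounts to 11.3 CPM. The values with C1Q and C5 include the library without any receptor count, which lowers their means.

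Whether any stimulus acted differently in the cell types was tested by the 4 interaction terms of cell type and treatment together. By edgeR, 0 of 21 tested receptor genes passed, 2 of them at an unadjusted p under 0.05, Grin3a and Grid1, beside 0 of 13227 genes (0%, with 808 at an unadjusted p under 0.05). DESeq2 called 0 receptor genes and 1 gene of 24301 (0.00412%), Tppp3, named after its value was seen. At this depth and with 4 replicates per group, no change of a receptor gene with a stimulus was called, which does not show that levels were equal.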

How the data were processed

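The members and lists were chosen with earlier results of these data known. The authors lysed sorted cells, primed cDNA with oligo-dT, fragmented it with Tn5, sequenced read pairs and mapped them with STAR, and they deposited counts per Ensembl gene. They annotated genes through biomaRt, and the sources used here do not give the counting program, its use of strand, the build or the annotation release. The 55487 genes were matched to GENCODE M21 on GRCm38 for coordinates and exon lengths (55227 matched, the others held 0.117% of counts). From the deposited counts, CPM, RPKM and fits were computed with R 4.3.3, edgeR 4.0.16 (filterByExpr, TMM, robust quasi-likelihood fit, Benjamini-Hochberg over all genes kept) and DESeq2 1.42.0 (alpha 0.1), and the code was tested on simulated counts. The cell types were compared across the 5 treatments, with treatment in the model, and in control cultures alone, each stimulus with the control within each cell type, and the interaction over 40 libraries at adjusted p alone. The depth of the libraries of each cell type and the level that 3 counts amount to in them are given in the text, not those of each treatment group. Values per library or as lowest, median and highest are printed for called receptor genes and for the 3 of highest mean RPKM among the glutamate receptors and among the GABA and glycine receptors of each cell type, which makes 9 genes, and some genes are not reported here. A library far from the other 3 of its group was found with Dixon's ratio. Gad1, Gad2, Slc17a6, Slc6a5, Slc1a2 and Slc1a3 are in a pathway list and a marker list, and the symbols Insyn2a, Nacho and Nlgn4l were not in the table. Alternatives were DESeq2, RLE normalization, no filter on low counts, the replicate letter as a term, leaving out the 9 shallow libraries or each library in turn, raw library totals for levels and, chosen after seeing the data, each plate index alone. Sample sheet columns other than plate index and index primer were not used.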

Additional observations from a re-analysis of the deposited data

Results flagged for a closer look

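Within a group of 4 libraries, a value was noted when its gap to the nearest other value took up more of the range than Dixon's critical value for 4 samples allows, for the 7 receptor genes given per library. Of 70 groups, 9 were at 0 in every library, and a value was noted in 14 of the other 61. The critical value is set for about 1 in 20 by chance in normally distributed values. Whether CPM within a group are so distributed was not tested, so the rate may not hold for any of these groups. That rate does not apply to 4 of the 14, where the other 3 libraries were at 0 and the gap takes up the whole range by construction. Gria3 had 5 such libraries: control ES-astrocyte replicate B at 11.8 CPM (the other 3 at 0.855 to 1.60), ES-astrocyte replicate D with IL-1α and TNF-α at 59.6 CPM (0 to 8.26), ES-astrocyte replicate A with C1Q and C5 at 66.6 CPM (11.99 to 15.6), control ES-motor neuron replicate D at 50.0 CPM (9.04 to 11.5) and ES-motor neuron replicate D with TGF-β2 at 50.5 CPM (0.701 to 8.27). ES-astrocyte replicate C with C1Q and C5, the shallowest ES-astrocyte library with 1510823 counts, was high for both Grid1, at 12.2 CPM (0 to 1.19), and Glra1, at 33.3 CPM (3.92 to 5.07). Gabbr1 was low in ES-motor neuron replicate D with IL-1α and TNF-α, a shallow library of 112775 counts, at 8.65 CPM (46.9 to 53.9). Gabbr2 was high in ES-astrocyte replicate A with IL-1β and IL-6 at 9.75 CPM (0 to 0.233) and in ES-astrocyte replicate C with TGF-β2 at 5.05 CPM (0 to 0.582). In 4 groups a single library held counts and the other 3 were at 0: Grid1 was at 5.89 CPM in ES-motor neuron replicate A with IL-1β and IL-6 (93 counts) and Glra1 at 0.408 CPM in control ES-motor neuron replicate B (8 counts). Gabbr2 was at 0.107 CPM in control ES-astrocyte replicate A (1 count) and at 2.05 CPM in ES-motor neuron replicate C with C1Q and C5 (2 counts). With a count of 0 read as up to 3, none of these 4 values lay above all of the other 3 libraries of its group. The cause of these values was not tested.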

How the results depend on the processing

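Counts are of genes called by edgeR unless another tool is named, and the cause of each change below was not tested. Over all treatments, 1972 calls between cell types became 742 in plate index 1 and 1249 in plate index 2, which hold fewer libraries, and stayed between 1641 and 2820 under the other alternatives (2014 to 2223 with a library left out). Receptor genes higher in ES-motor neurons numbered 5 by DESeq2, 0 in plate index 1 and 1 in plate index 2, and those lower 2 by DESeq2, 3 without the filter on low counts, 2 without shallow libraries, 0 and 2 in plate index 1 and 2, and 1 to 3 with a library left out. Other genes of these systems higher numbered 3 without shallow libraries, 3 in plate index 1 and 3 in plate index 2, and lower 4 and 9 in plate index 1 and 2. In control cultures, 228 calls became 763 by DESeq2, 41 with the replicate letter as a term, 81 without shallow libraries, and 72 (without ES-motor neuron replicate B) to 401 (without ES-astrocyte replicate A) with a library left out. There, receptor genes called higher numbered 2 by DESeq2 and 0 to 1 with a library left out (1 without ES-astrocyte replicate C), and lower 1 by DESeq2. For stimuli in ES-astrocytes, DESeq2 called 21 genes with IL-1α and TNF-α (2 by edgeR without the filter), 37 with C1Q and C5, 56 with IL-1β and IL-6 and 58 with TGF-β2. In ES-motor neurons, 1 gene was called with IL-1α and TNF-α by DESeq2 and 1 without the filter, 1 with IL-1β and IL-6 by DESeq2, 0 to 2 with C1Q and C5 when a library was left out (2 without control replicate D), and, with TGF-β2, 19 by DESeq2, 5 without the filter, 4 with the replicate letter, 0 without shallow libraries and 0 to 2 with a library left out. The interaction had 1 call by DESeq2, 1 without the filter and 0 to 1 with a library left out (1 without ES-astrocyte replicate B with IL-1α and TNF-α). RLE normalization (2015 calls over all treatments) kept every result, and no direction of a fit turned. Mean levels of the 9 genes moved by less than 1 SD with raw library totals and without shallow libraries. Libraries of the same letter had correlations of -0.213 to 0.369 (median 0.0153, 36 pairs), so no pairing was used. The interaction and IL-1α with TNF-α in ES-motor neurons were not run without shallow libraries, as an arm would be empty.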
